A study of Mus musculus with 12 samples.

Results

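*Ifih1*, *Dhx58*, *Mavs*, *Zbp1*, *Eif2ak2*, *Adar*, *Trex1* and *Samhd1* are genes that sense, edit or degrade nucleic acids inside the cell. These 8 genes were taken by symbol from the 12850 genes of the deposited RNA-seq table, in which each has 1 row. All 8 passed the filter on low values and were among the 11885 genes tested. RNA was sequenced from thioglycollate-elicited peritoneal exudate cells (PECs), the cells that gather in the mouse peritoneal cavity after injection of an irritant and are mostly macrophages. The donors were C57BL/6 mice, either WT or homozygous for a knock-in of *Zc3h12a*, written *Zc3h12a* S513A/S513A and called S513A here. *Zc3h12a* encodes Regnase-1, an RNase that degrades inflammatory mRNAs, and the mutation replaces a serine of the protein by alanine in every cell of the animal. Cells of both genotypes were left without LPS (0 hr) or were given LPS at 100 ng/ml for 4 or 8 hr, with 2 libraries in each of the 6 groups. The sources used here do not give the age of the mice or say whether the 2 libraries of a group came from separate mice, so p-values measure only the spread between these libraries.

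The RNA helicases MDA5, encoded by *Ifih1*, and RIG-I bind viral double-stranded RNA in the cytosol and signal through MAVS, an adaptor on mitochondria, to the kinases that switch on type I interferon genes. Interferon then acts through its receptor and the transcription factors that it activates to raise the sensors themselves together with many antiviral effectors. LPS reaches the same interferon genes from outside the cell, through TLR4, and macrophages are known to induce interferon-stimulated genes after it. Other members of the group act on nucleic acids directly or limit what the sensors see. ZBP1 binds nucleic acids in the Z form, PKR (*Eif2ak2*) is a kinase activated by double-stranded RNA, ADAR1 (*Adar*) edits such RNA, TREX1 degrades cytosolic DNA, and SAMHD1 lowers the pool of nucleotides used for DNA synthesis.

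DNA motifs often read beside such genes are the core of the interferon-stimulated response element, searched as GAAA, any 2 bases and GAAA, and the core of the gamma-activated site, searched as TTC, any 3 bases and GAA, both on either strand. RefSeq promoter windows of the GRCm38.p6 build, which run from 250 bases before the gene start through the next 50 bases, were found for 6 of the 8 genes, *Ifih1*, *Mavs*, *Eif2ak2*, *Adar*, *Trex1* and *Samhd1*, with 9 windows in all. The response element core lay in the windows of 2 genes, *Ifih1* and *Eif2ak2*, in both just after the start. Of all 27025 genes with windows of this length, 3.99% have one that holds it. The gamma-activated core lay in windows of 3 genes, *Eif2ak2*, *Adar* and *Samhd1*, beside 9.55% of all genes. Every match is shown in a stretch of 30 bases on the strand of the gene, 5′ to 3′, with the motif in capitals, first the response element and then the gamma-activated core, so that the letters can be read beside the time courses that follow.
*Ifih1* (minus strand, chr2:62646206-62646235): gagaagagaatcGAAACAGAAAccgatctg
*Eif2ak2* (minus strand, chr17:78882535-78882564): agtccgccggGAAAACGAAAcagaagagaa
*Eif2ak2* (minus strand, chr17:78882731-78882760): ctgcagagctTTCCCAGAAtggaagccagg
*Adar* (plus strand, chr3:89730730-89730759): gggaagccttTTCAAGGAAacgaaagtgaa
*Samhd1* (minus strand, chr2:157135312-157135341): acaccaccctTTCGGAGAAacacaagggcg
A match is a run of letters and was not tested as a binding site. The response element begins 32 bases after the first transcribed base of *Ifih1* and 18 bases after that of *Eif2ak2*. The *Adar* match lies in the last of its 3 windows, and the *Mavs* and *Trex1* windows hold neither core. Only exact matches were counted. The last *Adar* window also holds GAAAGTGAAC, which departs from the response element core in its last base, and near matches were not searched for in any window.

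LPS raised 7 of the 8 genes at 4 hr. The other, *Mavs*, was slightly lower in S513A PECs and about unchanged in WT PECs, and its fall in the mean depended on single libraries. In the mean of both genotypes the changes ran from a log2 fold change of -0.28 for *Mavs* to 3.98 for *Ifih1*, with a median of 2.57, while the median over all genes tested was 0.017. All 8 passed an adjusted p of 0.05 in limma, which fits 1 mean per group here, with Benjamini-Hochberg adjustment, 7 of them higher and 1 lower. In the same comparison 55.8% of all genes tested passed, 29.1% as higher and 26.7% as lower. At 8 hr against 0 hr, 7 of the 8 were called, all higher, beside 46.1% of all genes tested and 24.5% called as higher. The median log2 fold change of the 8 was 2.41 at 8 hr. Within WT PECs 7 were called at each time, beside 41.3% and 34.3% of all genes, and within S513A PECs 8 and 7, beside 43.2% and 39.9%. Both comparisons use the same 0 hr libraries. These are bulk libraries, in which fewer cells of a type and less RNA per cell cannot be told apart.

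Depth and cell makeup can be given in ranges. Each library holds 9525979 to 12439960 reads on the listed genes, and the 8 genes were counted with 179 to 8663 reads, far above the floor of 3 reads, which covers counting error only. All 7 macrophage markers were measured, with a summed level of 16200 to 26400 CPM, the reads scaled to the size of the library, over the libraries. The 4 of 4 markers of resident peritoneal macrophages summed to 21.3 to 26.1 CPM at 0 hr, 32.1 to 34.8 after 4 hr and 40.1 to 48 after 8 hr in WT PECs. The rise lay mainly in *Timd4*, with 138 to 161 reads per WT library at 0 hr and 345 to 405 at 8 hr. At the same times *Gata6* had 35 to 66 and 6 to 18 reads, *Selp* 34 to 45 and 2 to 4, and *Icam2* 73 to 88 and 65 to 76. These reads are not scaled. The library sizes behind the CPM were 14351670 and 12997178 in WT PECs at 0 hr and 10532454 and 10482259 at 8 hr. The fewer *Icam2* reads at 8 hr therefore do not show a lower level. In S513A PECs the sums were 16.2 to 20.8, 18.9 to 26.3 and 23.5 to 28.3 CPM, below the WT libraries at every time. *Timd4* had 75 to 129 reads there at 0 hr and 183 to 218 at 8 hr. The lower level was not shared by all 4 markers at 8 hr. *Gata6* then had 9 to 11 reads beside 6 to 18 in WT, *Selp* 3 beside 2 to 4, and *Icam2* 39 to 64 beside 65 to 76. The S513A libraries with 39 and 64 *Icam2* reads had sizes of 11594738 and 9236852, so these reads alone do not show a lower level. The 1 neutrophil marker of 6 that was measured, *S100a8*, went from 20.2 to 35.0 CPM at 0 hr to 81.6 to 99.0 CPM at 8 hr in WT PECs and from 51.0 to 54.1 CPM to 31.8 to 84.0 CPM in S513A PECs. Of the other lists, 4 of 4 B cell markers summed to 3.44 to 8.87 CPM, 3 of 4 mast cell markers to 1.19 to 2.81 CPM and 2 of 3 mesothelial markers to 0.116 to 1.32 CPM, and 0 of 4 T cell markers were measured. The 1 eosinophil marker of 4 that was measured, *Siglecf*, went from 15.2 to 18.3 CPM at 0 hr to 2.98 to 4.32 CPM at 8 hr. The 2 plasmacytoid dendritic cell markers of 4 that were measured, *Ccr9* and *Cox6a2*, summed to 0.488 to 1.08 CPM at 0 hr and 3.1 to 4.22 CPM after LPS. That rise was in *Ccr9*, with 1 to 4 reads at 0 hr and 22 to 36 after LPS. *Cox6a2* had 5 to 9 and 3 to 13 reads. The part of these cells in the LPS changes and in the differences between genotypes was not tested. Replicates differed most in WT PECs at 4 hr, where the SD of their log2 difference was 0.401, and it was 0.162 to 0.341 in the other groups. The counts do not show the base that carries the S513A mutation, and 362 to 600 reads at 0 hr and 1167 to 3007 after LPS were counted on *Zc3h12a*.

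**Figure D1:**
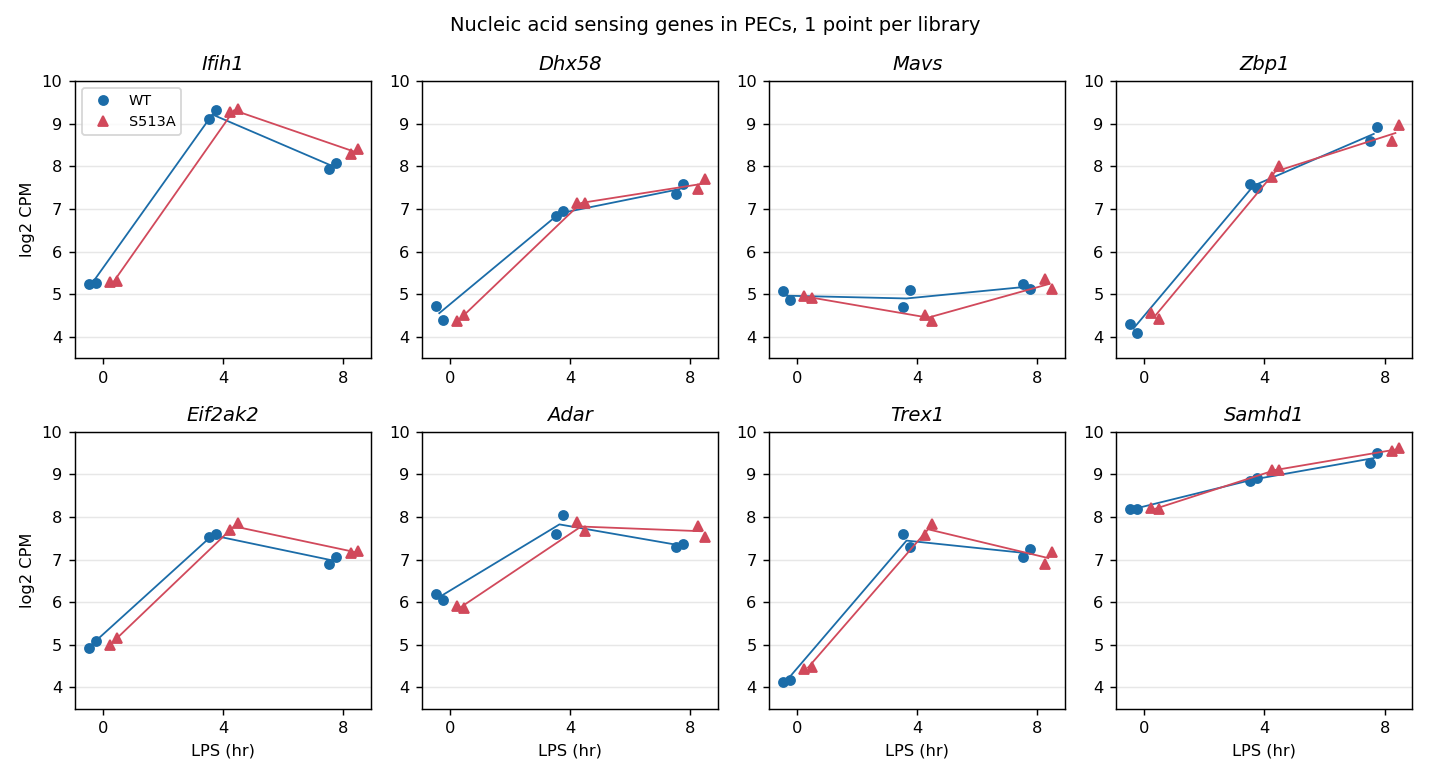
Log2 CPM (y axis) of the 8 genes at 0, 4 and 8 hr of LPS (x axis), 1 panel per gene and 1 point per library, blue circles for WT and red triangles for S513A, with lines through the group means of 2 libraries. *Ifih1* is highest at 4 hr, *Zbp1* at 8 hr, and *Mavs* stays between 4.38 and 5.35 throughout.

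*Ifih1* (Entrez gene 71586; chromosome 2, 62595618 to 62646255, minus strand, GRCm38) encodes MDA5, the helicase that recognizes long double-stranded RNA. In WT PECs, *Ifih1* was at a log2 CPM of 5.25 and 5.27 at 0 hr, 9.10 and 9.33 at 4 hr, then 7.94 and 8.07 by 8 hr. In S513A PECs, it was at 5.28 and 5.32, then 9.28 and 9.35, then 8.28 and 8.41. The 3 time points did not overlap, and the 4 hr libraries were the highest in both genotypes. The CPM rose 15.5-fold by 4 hr in WT and 16.1-fold in S513A PECs, the largest change of the 8 genes at that time. In the mean of genotypes the log2 fold change was 3.98 ± 0.08 (SE; limma adjusted p = 4.15e-11) at 4 hr and 2.89 ± 0.08 (limma adjusted p = 5.47e-10) at 8 hr.

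*Dhx58* (Entrez gene 80861; chromosome 11, 100694884 to 100704271, minus strand) encodes LGP2, a helicase of the same family that lacks the signaling domains and modulates RIG-I and MDA5. In WT PECs, *Dhx58* was at a log2 CPM of 4.72 and 4.39 at 0 hr, 6.83 and 6.96 at 4 hr, then 7.35 and 7.58 by 8 hr. In S513A PECs, its values were 4.36 and 4.52, then 7.13 and 7.15, then 7.47 and 7.70. Every 8 hr library was above every 4 hr library, unlike for *Ifih1*. Log2 fold changes in the mean of genotypes were 2.52 ± 0.10 (SE; limma adjusted p = 5.68e-09) at 4 hr and 3.03 ± 0.10 (limma adjusted p = 2.28e-09) at 8 hr. An annotated antisense RNA, *Dhx58os*, shares 4.3% of the *Dhx58* exon bases, and mapping was unstranded.

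*Mavs* (Entrez gene 228607; chromosome 2, 131234063 to 131248025, plus strand) encodes the adaptor on which RIG-I and MDA5 converge. In WT PECs, *Mavs* was at a log2 CPM of 5.07 and 4.86 at 0 hr, 4.71 and 5.09 at 4 hr, then 5.23 and 5.12 by 8 hr. In S513A PECs, the values were 4.96 and 4.91, then 4.52 and 4.38, then 5.35 and 5.12. The WT libraries at 4 hr overlapped those at 0 hr, while both S513A libraries at 4 hr were below all others. The change at 4 hr was -0.07 ± 0.15 (SE; limma adjusted p = 0.746) in WT and -0.49 ± 0.15 (limma adjusted p = 0.021) in S513A PECs. The difference between these changes had a log2 value of -0.42 (95% confidence interval -0.88 to 0.04, limma adjusted p = 1), so the genotypes were not shown to differ. Over both genotypes, the log2 value of *Mavs* fell by 0.28 at 4 hr (SE 0.10, limma adjusted p = 0.042). That call held without WT 0 hr replicate 2, WT 4 hr replicate 2 or either S513A 8 hr library, and was lost without any 1 of the other 8 libraries, with limma adjusted p values from 0.0513 to 0.144. The S513A call was lost without S513A 0 hr replicate 1 (limma adjusted p = 0.102), 0 hr replicate 2 (0.074) or 4 hr replicate 2 (0.11). At 8 hr against 0 hr the log2 fold change was 0.25 ± 0.10 (limma adjusted p = 0.0718), and it was called without WT 4 hr replicate 1 (0.0305) or 2 (0.0308).

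*Zbp1* (Entrez gene 58203; chromosome 2, 173206612 to 173218959, minus strand) encodes a sensor of Z-form nucleic acids that can start necroptosis through RIPK3. In WT PECs, *Zbp1* was at a log2 CPM of 4.31 and 4.08 at 0 hr, 7.59 and 7.50 at 4 hr, then 8.60 and 8.92 by 8 hr. In S513A PECs, it was measured at 4.56 and 4.42, then 7.75 and 8.00, then 8.59 and 8.97. The libraries rose in 2 steps without overlap, and at 8 hr the level was 23.6-fold that of 0 hr in WT and 19.7-fold in S513A PECs on the CPM scale. The log2 fold change in the mean of genotypes was 3.37 ± 0.11 (SE; limma adjusted p = 1.75e-09) at 4 hr and 4.43 ± 0.11 (limma adjusted p = 4.57e-10) at 8 hr, the largest of the 8 genes at that time.

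*Eif2ak2* (Entrez gene 19106; chromosome 17, 78850504 to 78882572, minus strand) encodes PKR, which halts translation when it binds double-stranded RNA. In WT PECs, *Eif2ak2* was at a log2 CPM of 4.93 and 5.10 at 0 hr, 7.54 and 7.60 at 4 hr, then 6.90 and 7.06 by 8 hr. In S513A PECs, its levels were 5.0 and 5.17, then 7.70 and 7.86, then 7.15 and 7.21. All 4 hr libraries were above all 8 hr libraries and these above all 0 hr libraries, the order also seen for *Ifih1* and *Trex1*. Log2 fold changes in the mean of genotypes were 2.63 ± 0.08 (SE; limma adjusted p = 8.35e-10) at 4 hr and 2.03 ± 0.08 (limma adjusted p = 8e-09) at 8 hr.

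*Adar* (Entrez gene 56417; chromosome 3, 89714469 to 89753455, plus strand) encodes ADAR1, which turns adenosine into inosine in double-stranded RNA and so keeps the cell's own RNA from the sensors. A long form of ADAR1 is made from an interferon-inducible promoter and a short form is made constitutively, and a count per gene does not separate them. In WT PECs, *Adar* was at a log2 CPM of 6.19 and 6.05 at 0 hr, 7.60 and 8.05 at 4 hr, then 7.30 and 7.37 by 8 hr. In S513A PECs, the levels were 5.91 and 5.86, then 7.87 and 7.68, then 7.79 and 7.54. All libraries with LPS were above all libraries without, and the S513A libraries at 4 and 8 hr overlapped. The log2 fold change in the mean of genotypes was 1.80 ± 0.11 (SE; limma adjusted p = 1.35e-07) at 4 hr and 1.5 ± 0.11 (limma adjusted p = 7.18e-07) at 8 hr. Of its exon bases, 16.8% are shared with *Chrnb2* on the opposite strand, whose mean log2 CPM was 0.63 or lower in every group.

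*Trex1* (Entrez gene 22040; chromosome 9, 109057932 to 109059723, minus strand) encodes the exonuclease that clears DNA from the cytosol. In WT PECs, *Trex1* was at a log2 CPM of 4.14 and 4.17 at 0 hr, 7.60 and 7.29 at 4 hr, then 7.05 and 7.25 by 8 hr. In S513A PECs, the corresponding values were 4.44 and 4.49, then 7.58 and 7.84, then 6.90 and 7.17. Libraries with LPS were all far above those without, and all 8 hr libraries were below the 4 hr libraries. The log2 fold change in the mean of genotypes was 3.27 ± 0.10 (SE; limma adjusted p = 1.06e-09) at 4 hr and 2.78 ± 0.10 (limma adjusted p = 4.92e-09) at 8 hr. The annotation places 100% of the *Trex1* exon bases inside exons of *Atrip* on the same strand, so reads there can belong to either gene and the level of *Trex1* is uncertain. The mean log2 CPM of *Atrip* was 3.08 to 3.65 over the groups.

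*Samhd1* (Entrez gene 56045; chromosome 2, 157097534 to 157135096, minus strand) encodes a hydrolase of deoxynucleotides that restricts retroviruses in myeloid cells. In WT PECs, *Samhd1* was at a log2 CPM of 8.19 and 8.18 at 0 hr, 8.84 and 8.92 at 4 hr, then 9.26 and 9.50 by 8 hr. In S513A PECs, its log2 CPM was 8.20 and 8.18, then 9.09 and 9.11, then 9.55 and 9.61. The gene was already abundant without LPS and rose in small steps without overlap between the time points. Its log2 fold change in the mean of genotypes was 0.80 ± 0.07 (SE; limma adjusted p = 4.68e-06) at 4 hr and 1.29 ± 0.07 (limma adjusted p = 1.4e-07) at 8 hr. In WT PECs the change at 4 hr was 0.70 ± 0.11 (limma adjusted p = 0.000342), and under quantile normalization it was 0.26 (limma adjusted p = 0.0876).

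The genes parted between 4 and 8 hr. Averaged over the genotypes, *Dhx58*, *Zbp1* and *Samhd1* rose further, *Mavs* rose, *Ifih1*, *Eif2ak2* and *Trex1* fell, and *Adar* did not pass the test. The *Mavs* rise was called in S513A PECs (0.78, limma adjusted p = 0.00604) but not in WT PECs (0.28, limma adjusted p = 0.246). The genotypes were not shown to differ in it (limma adjusted p = 0.258). In the mean of genotypes 7 of the 8 were called, 4 higher and 3 lower, beside 25.6% of all genes tested and 12.8% in each direction. *Ifih1* fell by 1.09 on the log2 scale (SE 0.08, limma adjusted p = 1.17e-05), which left it at 47.1% of its 4 hr level, *Eif2ak2* fell by 0.59 (SE 0.08, limma adjusted p = 0.000425) and *Trex1* by 0.49 (SE 0.10, limma adjusted p = 0.00597). For these genes all 4 libraries at 8 hr were below all 4 at 4 hr. *Zbp1* rose by 1.06 (SE 0.11, limma adjusted p = 0.000106), *Mavs* by 0.53 (SE 0.10, limma adjusted p = 0.00404), *Dhx58* by 0.51 (SE 0.10, limma adjusted p = 0.00387) and *Samhd1* by 0.49 (SE 0.07, limma adjusted p = 0.000911). For these 4 genes the libraries of the 2 time points did not overlap either. The share of all genes tested without such overlap was not counted, so it only describes these libraries.
*Adar* had a log2 fold change of -0.30 ± 0.11 (SE; limma adjusted p = 0.0631) from 4 to 8 hr, and without WT 4 hr replicate 1 it was -0.41 (limma adjusted p = 0.00671). In the separate genotypes *Adar* stood at -0.49 in WT (limma adjusted p = 0.053) and -0.10 in S513A PECs (limma adjusted p = 0.644). The S513A value turned to 0.05 under quantile normalization. The WT value lay near the threshold and was called under some alternatives but not under others. Its limma adjusted p was 0.0492 with the filter at a mean of 5 CPM and 0.0454 with correlated libraries. The genotypes were not shown to differ in this *Adar* change (limma adjusted p = 0.306). Within a genotype, with 2 libraries at each time, 5 of the 8 genes were called in WT PECs (beside 14.2% of all genes) and 6 in S513A PECs (beside 18.3%). Each WT library at 8 hr left out brought the first count to 3. Leaving out S513A 4 hr replicate 2 brought the second to 2, and S513A 8 hr replicate 1 brought it to 3. The sign of the change was the same in both genotypes for all 8 genes, with *Ifih1* at -1.21 and -0.97, *Zbp1* at 1.21 and 0.90, *Eif2ak2* at -0.59 and -0.60, *Trex1* at -0.29 and -0.68, *Samhd1* at 0.50 and 0.47, *Dhx58* at 0.57 and 0.45 and *Mavs* at 0.28 and 0.78 in WT and S513A PECs.

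**Figure D2:**
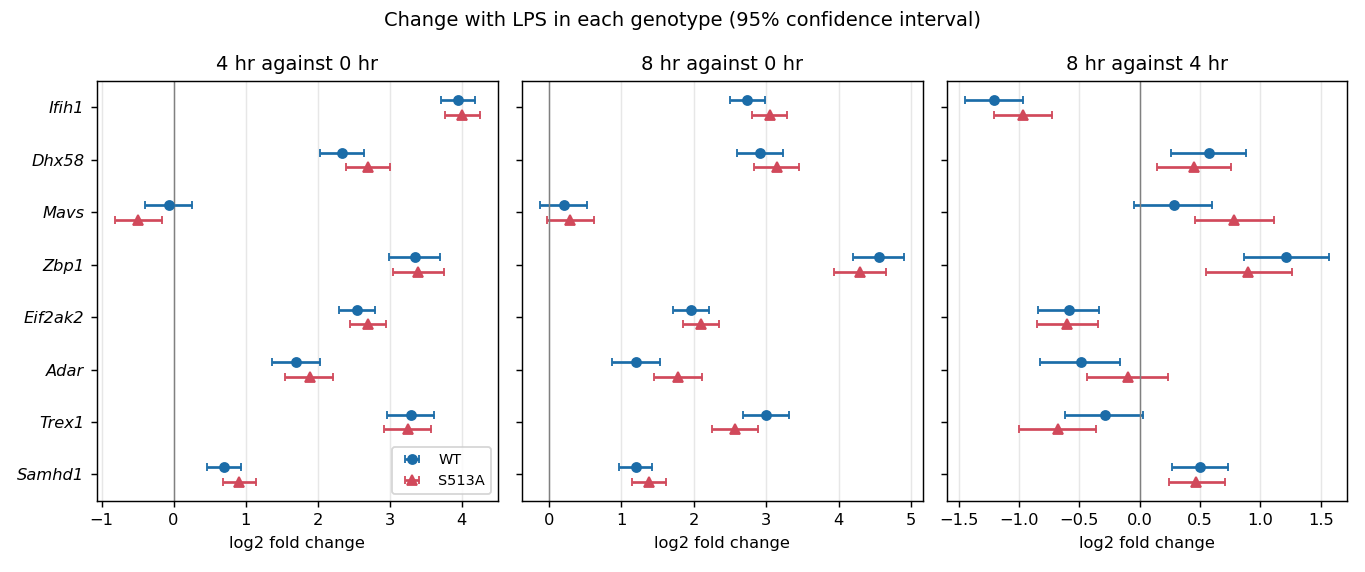
Log2 fold change with its 95% confidence interval from limma (x axis) for each of the 8 genes (y axis), at 4 hr against 0 hr, 8 hr against 0 hr and 8 hr against 4 hr, blue circles for WT and red triangles for S513A. At 8 hr against 4 hr, *Ifih1*, *Eif2ak2* and *Trex1* lie left of 0 and *Zbp1*, *Dhx58* and *Samhd1* right of it in both genotypes, with the WT interval of *Trex1* reaching 0.03.

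Set per kilobase of exon, the levels of the genes changed order with time. The lengths are the union of all GENCODE exons of a gene, and the annotation used for the counts is not given. The ranks between genes depend on these lengths. Without LPS *Samhd1* was highest, with a median of 31.8 CPM per kb over 4 libraries (31.6 to 32.2), followed by *Trex1* at 17.3 (15.3 to 19.6). The other 6 genes ran from *Mavs* at 9.16 (8.71 to 10.0) through *Adar*, *Dhx58*, *Eif2ak2* and *Zbp1* to *Ifih1* at 4.75 (4.66 to 4.89), and each overlapped its neighbour in that order.
At 4 hr *Trex1* was highest at 168 CPM per kb (136 to 200). *Ifih1*, lowest before, stood next at 77.3 (67.0 to 79.8) and overlapped *Zbp1* at 57.8 (51.5 to 72.7), which overlapped *Samhd1* at 56.2 (50.2 to 60.5). *Dhx58* at 40.5 and *Eif2ak2* at 39.3 overlapped each other, *Adar* followed at 27.0 (24.0 to 32.6), and *Mavs* was lowest at 7.32 (6.23 to 10.2).
At 8 hr *Zbp1* at 123 CPM per kb (109 to 142) and *Trex1* at 121 (104 to 133) overlapped at the top. Below them *Samhd1* at 80.3, *Dhx58* at 56.3 and *Ifih1* at 35.5 were each clear of the next gene, *Eif2ak2* at 26.9 (23.4 to 29) overlapped *Adar* at 21.7 (19.4 to 27.3), and *Mavs* was again lowest at 10.8 (10.4 to 12.2). *Trex1* has the shortest exons, 1147 bases in all, wholly shared with *Atrip*, and *Samhd1* the longest, 9150 bases.

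**Figure D3:**
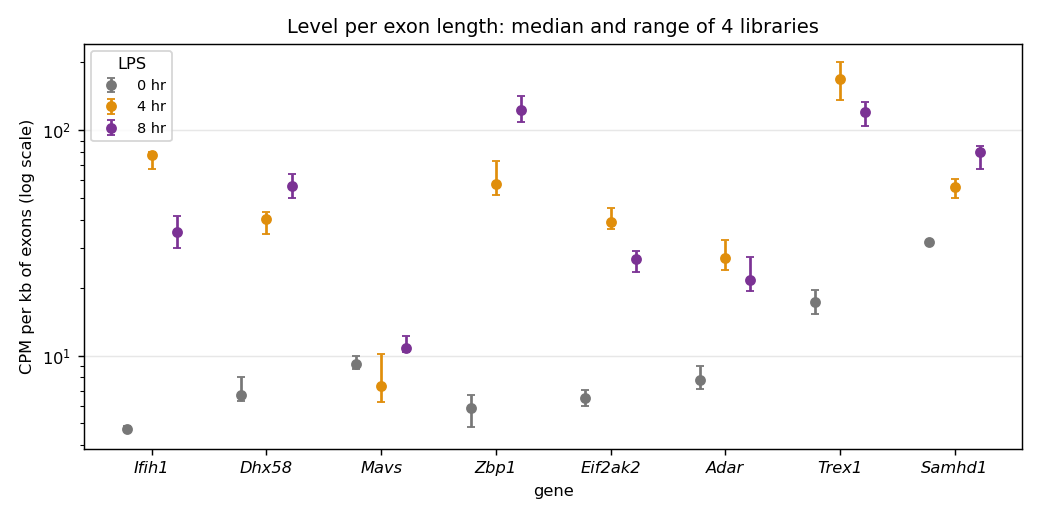
Level per exon length, in CPM per kb of exons on a log axis (y axis), for the 8 genes (x axis) at 0 hr (grey), 4 hr (orange) and 8 hr (purple). Points are medians and bars the range of 4 libraries, 2 of each genotype. *Ifih1* moves from 4.75 to 77.3 between 0 and 4 hr, while *Mavs* is the lowest gene at 4 and 8 hr.

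By position, 4 of the 8 genes, *Ifih1*, *Mavs*, *Zbp1* and *Samhd1*, lie on chromosome 2, and the others each lie on a chromosome of their own. The genes whose time course was most like each member, by Pearson's r of log2 CPM over the 12 libraries among 8345 other genes, are given as a description. All points share the same libraries and LPS times, so r is high for any gene with a similar LPS change. *Ifih1* was most like *Picalm*, *Mx2* and *Tnfaip3* (r = 0.998 each), and *Eif2ak2* most like *Ifi203* and *Mx2* (0.999 each) and *Naa25* (0.998). *Trex1* was most like *Ifi211*, *Ifit1* and *Cd40* (0.998 each), and *Adar* most like *Syk* (0.997), *Helz2* and *Rhbdf2* (0.996 each). Among the genes that rose further by 8 hr, *Zbp1* was most like *Ms4a4c* and *H2-Q4* (0.997 each), *Dhx58* most like *Cmtr1* (0.997), *Cd274* and *Acsl1* (0.995 each), and *Samhd1* most like *Oas3* (0.992) and *Parp11* (0.989). *Mx2* was near 2 members. *Mavs* had lower values, with *Preb* at 0.944 and *Csf1r* at 0.923.

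The other genes of these pathways were counted in 6 lists, with LPS changes in the mean of genotypes. Of all genes tested, 29.1% were called higher and 26.7% lower at 4 hr, and 24.5% and 21.6% at 8 hr, and each list is read against these shares. Of 18 measured genes of RNA sensing and MAVS signaling, 13 rose and 2 fell at 4 hr, with a median log2 fold change of 1.17, and 12 rose and 2 fell at 8 hr. *Ddx58*, the gene for RIG-I, rose by 3.03 after 4 hr and stood at 2.76 after 8 hr (limma adjusted p = 2.39e-10 and 7.58e-10). *Ddx60*, a helicase reported as a cofactor of RIG-I, was at 3.20 and 3.35 (limma adjusted p = 5.39e-09 and 5.5e-09). *Irf7*, the factor that amplifies interferon transcription, was at 2.95 and 4.17 (limma adjusted p = 9.07e-09 and 1.18e-09), with a larger value at 8 hr as for *Zbp1*. The 2 that fell, named after their values were seen, were *Nlrx1* at -1.06 and *Prkra*, an activator of PKR, at -0.99 at 4 hr (limma adjusted p = 7.03e-05 and 7.92e-06).

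The 8 measured genes of the OAS family, enzymes and related proteins that bind double-stranded RNA, were each called higher at 4 and at 8 hr, with median log2 fold changes of 2.60 and 3.00. *Oasl1* had the largest change of all the listed genes, a log2 fold change of 5.97 after 4 hr and 4.54 after 8 hr (limma adjusted p = 2.56e-11 and 2.27e-10). *Oasl2* was at 3.22 and 3.56 (limma adjusted p = 1.46e-10 and 1.55e-10) and *Oas1b*, with 16 to 269 reads per library, at 3.22 and 2.66 (limma adjusted p = 1.04e-06 and 6.28e-06). The mouse *Oas1* genes are near copies of each other, so the split of reads between them is uncertain.

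Of 11 measured genes of DNA sensing, 6 rose and 5 fell at 4 hr and 5 rose and 3 fell at 8 hr, with median log2 fold changes of 0.73 and -0.02, beside 55.8% and 46.1% of all genes called in either direction. The 3 largest changes were in *Mndal* at 3.42 and 2.51 (limma adjusted p = 1.17e-09 and 1.62e-08), *Ifi204* at 2.99 and 2.75 (limma adjusted p = 2.37e-09 and 6.23e-09), both of an interferon-inducible family with near copies, and *Dtx3l*, a ubiquitin ligase, at 2.78 and 2.44 (limma adjusted p = 5.53e-10 and 2.25e-09). The 5 that fell at 4 hr, named after their values were seen, were *Xrcc5* at -1.37, counted with only 4 to 44 reads per library, and *Xrcc6* at -1.24, which encode the Ku proteins, *Prkdc* at -0.99, *Tmem173*, the gene for STING, at -0.97, and *Hmgb1* at -0.34. *Hmgb1* had a limma adjusted p of 0.0403, and its call held without replicate 1 of WT 0 hr or WT 4 hr, S513A 4 hr replicate 2 or either S513A 8 hr library and was lost without any 1 of the other 7 libraries (limma adjusted p = 0.054 to 0.137). The other 4 had limma adjusted p values of 0.00303 or less.

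The next 2 lists are small, and their counts lie near the shares of all genes, 29.1% higher and 26.7% lower after 4 hr and 24.5% and 21.6% after 8 hr of LPS. Among nucleases and other genes linked to Aicardi-Goutieres syndrome, the human disease of *TREX1*, *SAMHD1*, *ADAR* and *IFIH1*, 4 of 10 measured genes rose and 3 fell at 4 hr, and 2 rose and 3 fell at 8 hr. *Rnaset2b* was at 1.67 and 1.69 and *Rnaset2a*, its near copy, at 1.39 and 1.52, and reads may be split between them. *Pld4*, an endosomal exonuclease, was at -1.10 and -1.14 (limma adjusted p = 0.000397 and 0.000421). Of 6 partners of ZBP1 in cell death, 2 rose and 2 fell at 4 hr, and 1 rose and 2 fell at 8 hr. *Mlkl*, the executioner of necroptosis, rose with *Zbp1*, at 1.82 and 2.60 (limma adjusted p = 5.3e-08 and 4.75e-09), while *Ripk3*, the kinase between them, was at -0.80 and -1.01 (limma adjusted p = 0.000524 and 0.000127) and *Casp6* at -0.86 and -0.95 (limma adjusted p = 0.000457 and 0.0003).

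Of 8 measured genes for the interferon receptor and the factors that act after it, 6 rose and 1 fell at 4 hr, and 6 rose and 0 fell at 8 hr, beside 55.8% and 46.1% of all genes called in either direction. *Stat2* was at 2.78 and 2.52 (limma adjusted p = 4.65e-09 and 1.42e-08), *Irf1* at 2.71 and 2.89 (limma adjusted p = 8.84e-10 and 9.64e-10) and *Irf9* at 1.47 and 1.19 (limma adjusted p = 2.54e-08 and 1.72e-07). The gene that fell at 4 hr, named after its values were seen, was *Irf8* at -0.47 (limma adjusted p = 0.000151). In the 6 lists together, 0 genes were called between the genotypes or in the genotype by LPS interaction.

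**Figure D4:**
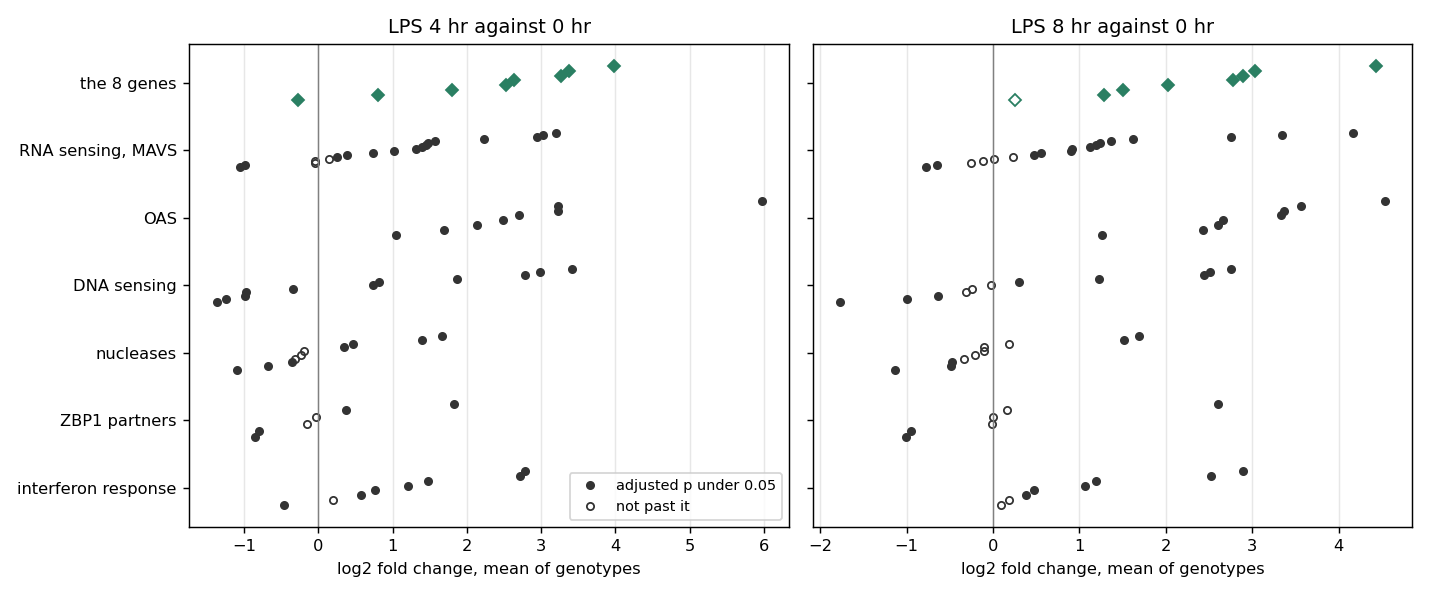
Log2 fold change in the mean of genotypes (x axis) at 4 hr and at 8 hr against 0 hr for the 8 genes (green diamonds) and the genes of 6 pathway lists (black circles, 1 per gene, sorted within a list), with filled symbols for a limma adjusted p under 0.05. The point furthest right at 4 hr is *Oasl1* at 5.97, and *Mavs* is the only open diamond at 8 hr.

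The S513A mutation was compared with WT at each time. None of the 8 genes passed the adjusted threshold: 0 were called by limma without LPS, after 4 hr, after 8 hr or over the time points averaged, beside 0.0337%, 0.0168%, 0.0337% and 0.0673% of all genes tested, and 0 with voom weights as well. At an unadjusted p under 0.05 there were 0, 1, 2 and 4 genes of the 8, beside 7.98%, 7.01%, 12.5% and 6.71% of all genes. In the mean of the time points the log2 differences, S513A minus WT, ran from -0.14 for *Mavs* to 0.21 for *Zbp1*, and the 95% confidence intervals of all 8 genes lay between -0.33 and 0.42. For that mean, differences beyond this range were outside the intervals, and 6 libraries of each genotype gave no call within it. The intervals at single times were wider and reached -0.77 for *Mavs* and 0.69 for *Zbp1*, both at 4 hr.
The 4 genes with an unadjusted p under 0.05 in that mean were all higher in S513A PECs, with *Zbp1* at 0.21 (95% confidence interval 0.01 to 0.42, limma adjusted p = 0.724), *Ifih1* at 0.16 (0.02 to 0.30, limma adjusted p = 0.68), *Eif2ak2* at 0.16 (0.02 to 0.30, limma adjusted p = 0.704) and *Samhd1* at 0.14 (0.01 to 0.28, limma adjusted p = 0.716). *Trex1* stood at 0.15 (limma adjusted p = 0.808), *Dhx58* at 0.08 (limma adjusted p = 0.892) and *Adar* at 0.01 (limma adjusted p = 0.975), and the value of *Adar* turned to -0.01 under quantile normalization.
At single times the differences with an unadjusted p under 0.05 were 0.34 for *Ifih1* (limma adjusted p = 0.395) and 0.33 for *Adar* (limma adjusted p = 0.398) at 8 hr and -0.45 for *Mavs* at 4 hr (limma adjusted p = 0.622). In each of these the S513A pair of libraries did not overlap the WT pair. The same held at 0 hr for *Ifih1*, with a difference of 0.04 (limma unadjusted p = 0.721), and for *Zbp1*, *Adar* and *Trex1*. It also held for *Dhx58*, *Zbp1*, *Eif2ak2* and *Samhd1* at 4 hr and for *Eif2ak2* and *Samhd1* at 8 hr. How many of all genes show no overlap was not counted, so it adds nothing to the tests.

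**Figure D5:**
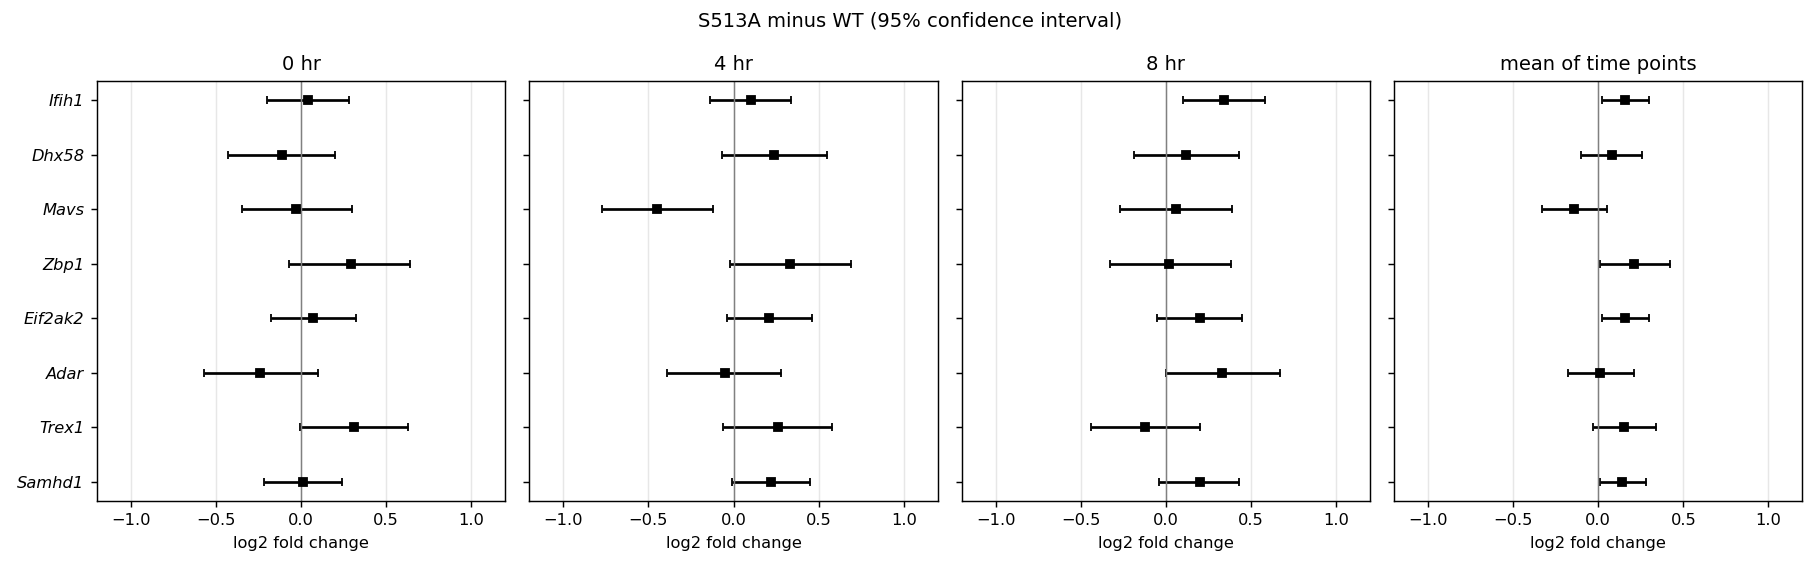
Log2 difference, S513A minus WT, with its 95% confidence interval from limma (x axis) for each of the 8 genes (y axis) without LPS, after 4 hr, after 8 hr and as a mean of the times. Intervals clear of 0 are those of *Mavs* at 4 hr, *Ifih1* and *Adar* at 8 hr and 4 genes in the mean, and 0 of the 8 genes had an adjusted p under 0.05 in any panel.

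The LPS changes themselves were compared between the genotypes by the interaction term. Of the 8 genes, 0 were called for 4 hr against 0 hr, 8 hr against 0 hr or 8 hr against 4 hr, and 0 of all genes tested were. At an unadjusted p under 0.05 there were 0, 1 and 1 of the 8 genes, beside 1.21%, 20.2% and 18.9% of all genes. The 1 at 8 hr against 0 hr was *Adar*, which rose by 1.21 in WT and 1.78 in S513A PECs on the log2 scale, a difference of 0.57 (95% confidence interval 0.10 to 1.04, limma adjusted p = 0.206). The 1 at 8 hr against 4 hr was *Mavs*, with a difference of 0.51 (0.05 to 0.97, limma adjusted p = 0.258). Without WT 4 hr replicate 1 that difference was 0.70 (limma adjusted p = 0.0381), and 2 of the 8 genes were called, beside 20.8% of all genes, where 0 were called with all libraries. WT 4 hr replicate 1 is 1 of the pair of libraries with the widest replicate difference.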

How the data were processed

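RNA-seq values of 12 libraries were used. The authors mapped reads to mm10 with HISAT2 in unstranded mode, counted them with featureCounts 1.6.3 and deposited log2 CPM values. The strand setting of the counting, the annotation and the program behind the log2 values are not given in the sources used here. The smallest value of each library was taken as no reads with 0.5 read added before division by a normalized library size. The scale so set gave whole reads (100% of values within 0.1 read). No further normalization was applied. A gene was kept if 2 or more libraries held 1 CPM or more. A linear model with 6 group means (6 residual degrees of freedom) was fitted to all kept genes with limma 3.58.1 in R 4.3.3, with a prior that follows the mean log2 value, two-sided tests and Benjamini-Hochberg adjustment over all genes tested in a contrast, at a threshold of 0.05. The model was tested on simulated data in which genes and libraries varied independently. Replicate deviations shared by many genes, as in these libraries, were not simulated, so that test does not cover them. Intervals are its 95% confidence intervals. Levels per kb used the union of GENCODE M21 exons, and promoter windows came from RefSeq.

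The genes, lists, contrasts and alternatives were chosen with earlier results of these data known. Named are all 8 genes, the 3 genes of each list with the largest change at 4 hr, any list gene called between genotypes and, for each of the 8, the 3 genes with the highest Pearson's r among those averaging a log2 CPM of 3 or more. Some genes of the lists or of the ranking by r are not reported here, and were left out of the list counts after their values were seen. The alternatives changed the filter (none, or a mean of 5 CPM or more), the scaling (median ratios or quantile normalization), the pseudocount (1 CPM more), the prior (robust, or without a trend), the weights (voom) and the error (a replicate block, a correlation within libraries of the same genotype and number, or only the libraries compared), or left out each library. A factor of replicate deviations as a term was added after seeing the data.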

Additional observations from a re-analysis of the deposited data

How the results depend on the processing

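Over the alternatives, counts of the 8 genes called stayed within 1.5 times in 16 contrasts, with these exceptions. For LPS 8 hr against 4 hr, the WT count of 5 was 2 with only the libraries compared, 8 with the factor of replicate deviations, and 3 to 6 with 1 library left out, and the S513A count of 6 was 3 with only the libraries compared and 2 to 7 with 1 library left out. With the factor as a term, 2 genes were called between genotypes at 0, 4 and 8 hr each, 2 in the interaction at 8 hr against 0 hr and 3 at 8 hr against 4 hr, where the count was 0 to 2 with 1 library left out. With the factor, 15.1%, 12.6% and 20.8% of all genes were called between genotypes at 0, 4 and 8 hr and 29.9% and 29.1% in these interactions. Over all genes the calls between genotypes at 0 hr went from 4 to 1790 with the factor and to 693 with only the libraries compared. The factor was estimated from the same replicate deviations that serve as the error of the test. Where a library was left out, the lone library of its group was assumed to vary like the other groups. The cause of these changes was not tested, beyond the smaller number of libraries where some were left out. Of single values, *Adar* in S513A PECs at 8 hr against 4 hr was 0.05 under quantile normalization and -0.23 to 0.02 with 1 library left out. *Adar* between genotypes in the mean of time points was -0.01 and -0.06 to 0.09 under the same choices. *Mavs* in WT PECs at 4 hr was -0.26 to 0.12 with 1 library left out, and *Irf8* at 8 hr against 0 hr was -0.10 under quantile normalization.

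The labels give every group replicates 1 and 2. Deviations of same-numbered WT and S513A libraries correlated at -0.251 without LPS, -0.739 after 4 hr and 0.363 after 8 hr, over 8353 genes. Over all pairs of groups the correlation ran from -0.749, for WT 4 hr with S513A 8 hr, to 0.76, for S513A 4 hr with S513A 8 hr. Since not every pair was above 0.1 and no label ties the numbers to a mouse or a day, the numbers were not taken to pair the libraries. With the replicate block, 7 of the 8 genes were called at 4 hr against 0 hr in the mean of genotypes in place of 8, *Mavs* being lost at -0.28 (limma adjusted p = 0.0547), and every other count of the 8 genes was unchanged. *Hmgb1* was lost there too (limma adjusted p = 0.054). With the prior without a trend both calls were lost as well (limma adjusted p = 0.0584 for *Mavs* and 0.0622 for *Hmgb1*). The same held with only the libraries compared (limma adjusted p = 0.0622 for *Mavs* and 0.0636 for *Hmgb1*). Each of the 8 genes had at least 179 reads per library, while among the listed genes *Xrcc5* had as few as 4 and *Oas1b* 16, so that their values are less precise.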
